A study of Mus musculus with 6 samples.

Results

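Imprinted genes are transcribed mainly from the copy inherited from one parent, and 37 of them, listed by name, were followed here among the 35325 genes annotated as protein-coding or as long non-coding RNA. Transcription start sites were counted by cap analysis of gene expression (CAGE), which sequences the capped 5′ ends of RNA, in nuclear RNA of 2 mouse cell lines. The mESC libraries came from R08, a male mouse embryonic stem cell line grown without feeder cells in medium with leukemia inhibitory factor and fetal bovine serum. The mOPC libraries came from Oli-neu, a neural line derived from mouse oligodendrocyte progenitor cells (OPCs) and expanded with N2 supplement, T3, L-thyroxine, bFGF and PDGF-BB. Each cell type had 3 libraries, each cell type was represented by 1 line, and neither line carried a further treatment in these libraries. The 3 libraries of a cell type carried 1 library code in the files, so that preparation and cell type cannot be told apart. Nothing in the labels ties the replicates to separate cultures, and the p-values therefore measure the spread between these libraries, which may be technical.

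Imprinted genes lie in clusters, and each cluster is governed by an imprinting control region whose DNA methylation is set in the egg or in the sperm and then kept in the cells of the body. Several clusters hold a long non-coding RNA that is expressed from one parental copy while the protein-coding neighbours are expressed from the other, as for Kcnq1ot1, Airn, H19 and Meg3. Many of the proteins act in fetal growth, placental development and the nervous system. The tags carried no allele information, so that the parent of origin was not read here, and every value below sums both copies.

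Levels are given as tags per 1000000 library tags (CPM) that started within 500 bp of an annotated 5′ end on the strand of the gene. Each tag marks the position of an RNA 5′ end, so that levels need no correction for gene length. The libraries held 16657021 to 40928704 tags, of which 82.8% to 83.4% in mESCs and 78.3% to 78.8% in mOPCs fell in such windows, and 3 tags correspond to 0.0733 to 0.18 CPM. The most used single position took 0.508% to 0.668% of tags in mESCs and 5.39% to 5.92% in mOPCs. The summed level of 8 pluripotency markers was 3841 to 4182 CPM in mESCs and 41.2 to 46.0 CPM in mOPCs, with 5 of the 8, Pou5f1 and Nanog included, at 3 tags or fewer in mOPCs. The summed level of 8 OPC markers was 8.82 to 10.2 CPM in mESCs and 2413 to 2558 CPM in mOPCs. Olig2 and Sox10 were abundant, Pdgfra reached 7.82 to 8.6 CPM, and Nkx2-2, a defining marker of the lineage, had 0 tags in mOPCs. The 4 markers of mature oligodendrocytes summed to 247 to 283 CPM in mOPCs against 2.40 to 3.20 CPM in mESCs. The neuron list (4 genes) summed to 20.3 to 28.1 and 80.6 to 101 CPM in mESCs and mOPCs. Of that list Rbfox3, Snap25 and Nefl were at 3 tags or fewer in mOPCs, where the sum rested on Syt1 (mean of 88.4 CPM). The astrocyte list (4 genes) summed to 7.86 to 10.6 and 14.4 to 16.0 CPM, with Aqp4 at 3 tags or fewer in both. Slc1a2 and Gfap were higher in mOPCs, whereas Aldh1l1 was higher in mESCs (means of 8.48 against 0.0231 CPM). Primitive endoderm markers (4 genes) summed to 26.8 to 31.3 and 7.84 to 8.63 CPM. Gata4, Gata6 and Sox17 were at 3 tags or fewer in mOPCs. The mOPC sum of this list rested on Pdgfra (mean of 8.33 CPM), which is also among the OPC markers. Trophoblast markers (4 genes) summed to 18.3 to 22.5 and 0.104 to 0.228 CPM, with Cdx2, Elf5 and Tfap2c at 3 tags or fewer in mOPCs. The mESC sum rested on Tfap2c (mean of 19.5 CPM), whereas Cdx2, Elf5 and Gata3 had means of 0.064, 0.0362 and 0.2575 CPM there. Mesenchyme markers (4 genes) summed to 2.32 to 2.40 and 9.67 to 12.3 CPM. The mOPC sum rested on Col1a1, with Lum and Twist2 at 3 tags or fewer in both cell types. Col1a2 had 10 tags in mESCs and 0 tags in mOPCs. The part of these other cell types in the differences below was not tested.

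The start sites of 7 member promoters are shown first, because they carry the main patterns: promoters in use in both cell types (Peg3 with Usp29, Kcnq1ot1, Gnas exon 1A, Plagl1) and promoters that were silent or nearly so in mOPCs (Mest, Phlda2, Dio3). The sequences are those of RefSeq in mm10, 300 bases each, 5′ to 3′ on the strand of the named gene. Capitals mark the most used start position of the CAGE tags together with the base after it. In the Peg3 sequence the TG pairs in capitals near the left end mark the starts of Usp29, which is read from the other strand. In the Mest sequence the 2 copies of GCGGCA, and in the Phlda2 and Dio3 sequences TATAAA, are also in capitals.
Peg3 and Usp29, chr7:6730370-6730669, minus strand: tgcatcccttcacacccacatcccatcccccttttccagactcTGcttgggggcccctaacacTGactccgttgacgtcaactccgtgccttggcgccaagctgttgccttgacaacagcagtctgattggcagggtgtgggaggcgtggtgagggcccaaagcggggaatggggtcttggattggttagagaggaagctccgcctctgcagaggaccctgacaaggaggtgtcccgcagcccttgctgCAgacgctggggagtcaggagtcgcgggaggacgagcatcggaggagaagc
Kcnq1ot1, chr7:143296498-143296797, minus strand: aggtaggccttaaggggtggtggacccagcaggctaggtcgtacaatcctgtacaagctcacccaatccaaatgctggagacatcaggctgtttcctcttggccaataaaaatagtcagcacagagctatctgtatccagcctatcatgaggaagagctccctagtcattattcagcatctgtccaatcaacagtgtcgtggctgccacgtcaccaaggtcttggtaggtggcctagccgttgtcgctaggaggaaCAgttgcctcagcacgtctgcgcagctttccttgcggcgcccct
Gnas exon 1A, chr2:174327499-174327798, plus strand: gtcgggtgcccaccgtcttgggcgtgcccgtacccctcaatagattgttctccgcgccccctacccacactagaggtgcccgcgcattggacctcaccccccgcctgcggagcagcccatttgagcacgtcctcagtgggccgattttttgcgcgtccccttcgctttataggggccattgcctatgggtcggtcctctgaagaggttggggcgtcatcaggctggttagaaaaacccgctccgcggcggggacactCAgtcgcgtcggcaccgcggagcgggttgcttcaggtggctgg
Plagl1, chr10:13090582-13090881, plus strand: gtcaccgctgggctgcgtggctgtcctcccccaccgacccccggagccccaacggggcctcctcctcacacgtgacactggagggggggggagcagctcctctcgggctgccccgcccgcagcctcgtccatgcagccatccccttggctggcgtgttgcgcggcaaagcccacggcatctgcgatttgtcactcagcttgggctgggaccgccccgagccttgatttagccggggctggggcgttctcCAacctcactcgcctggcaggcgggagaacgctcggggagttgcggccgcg
Mest, chr6:30737803-30738102, plus strand: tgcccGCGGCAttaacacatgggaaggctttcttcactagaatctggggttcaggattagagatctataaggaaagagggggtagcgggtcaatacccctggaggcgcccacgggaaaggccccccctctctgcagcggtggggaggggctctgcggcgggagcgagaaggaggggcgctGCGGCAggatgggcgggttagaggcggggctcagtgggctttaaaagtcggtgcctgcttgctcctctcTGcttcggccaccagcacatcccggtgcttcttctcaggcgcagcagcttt
Phlda2, chr7:143502475-143502774, minus strand: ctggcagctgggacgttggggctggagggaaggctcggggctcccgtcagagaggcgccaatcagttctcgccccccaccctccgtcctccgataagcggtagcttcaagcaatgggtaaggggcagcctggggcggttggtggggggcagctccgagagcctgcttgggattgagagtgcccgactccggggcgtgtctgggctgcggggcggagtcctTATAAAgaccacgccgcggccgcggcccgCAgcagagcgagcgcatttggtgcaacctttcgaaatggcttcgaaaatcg
Dio3, chr12:110278980-110279279, plus strand: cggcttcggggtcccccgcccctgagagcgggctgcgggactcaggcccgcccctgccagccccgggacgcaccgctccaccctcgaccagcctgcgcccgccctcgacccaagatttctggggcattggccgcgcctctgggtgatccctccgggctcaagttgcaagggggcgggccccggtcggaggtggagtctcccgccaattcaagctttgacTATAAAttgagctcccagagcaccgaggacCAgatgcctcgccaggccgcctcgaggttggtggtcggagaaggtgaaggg

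RefSeq promoter sequences were at hand for 30 of the 37 members (46 sequences). Of 25 dominant start positions that fell inside one, 20 lay on a C and 21 on a pyrimidine followed by a purine. The usual initiator has the start on the purine of such a pair, and 14 of the 46 member promoters with at least 1 CPM in mESCs had the dominant position exactly 1 bp upstream of an annotated 5′ end. Positions are printed as deposited, and whether the position was shifted by the additional base that CAGE reads can carry was not tested. TATAAA began 29 bases before the dominant position of Phlda2 and 30 bases before that of Dio3. The Dio3 start was the sharpest of those shown, with 94.0% of the tags of its window on 1 position. TGCCGC or its reverse complement GCGGCA, the letters bound by ZFP57 when their CpG is methylated, was found in a promoter sequence of 10 of the 30 members, and in 23.9% of the 46 member sequences against 11.6% of 32817 mouse promoter sequences of the same length (both strands searched). TATAAA was found in 23.9% of the member sequences and 13.6% of all promoter sequences, again on either strand. Overlapping sequences of 1 gene were counted separately, as those of Mest for TGCCGC and those of Gnas for TATAAA. A share per gene was not computed over all genes. The 46 sequences held a median of 12 CpG, against 7 in all promoters.

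The libraries were made to set transcript levels beside RNA-chromatin contacts in the 2 cell types, and the levels alone are compared here. All 35 members with enough tags to be tested passed the test (edgeR quasi-likelihood test, Benjamini-Hochberg adjusted p under 0.05), and so did 91.2% of the 16713 genes tested, so that the call itself says little of these genes. Of the 35, 10 were higher in mOPCs and 25 were higher in mESCs, where 43.4% and 47.8% of all genes tested were called in these directions. Rtl1 and Ndn had no tags in their start windows in any library and were not tested. The median log2 fold change (mOPC over mESC) was -3.42 over the members and -0.12 over all genes tested. It remained -3.42 with the 6 tested members that had 0 tags in mOPCs held at the bound that 3 tags allow. A difference of more than 4-fold was seen for 25 of 35 members (71.4%) and for 43.3% of all genes tested.

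**Figure D1:**
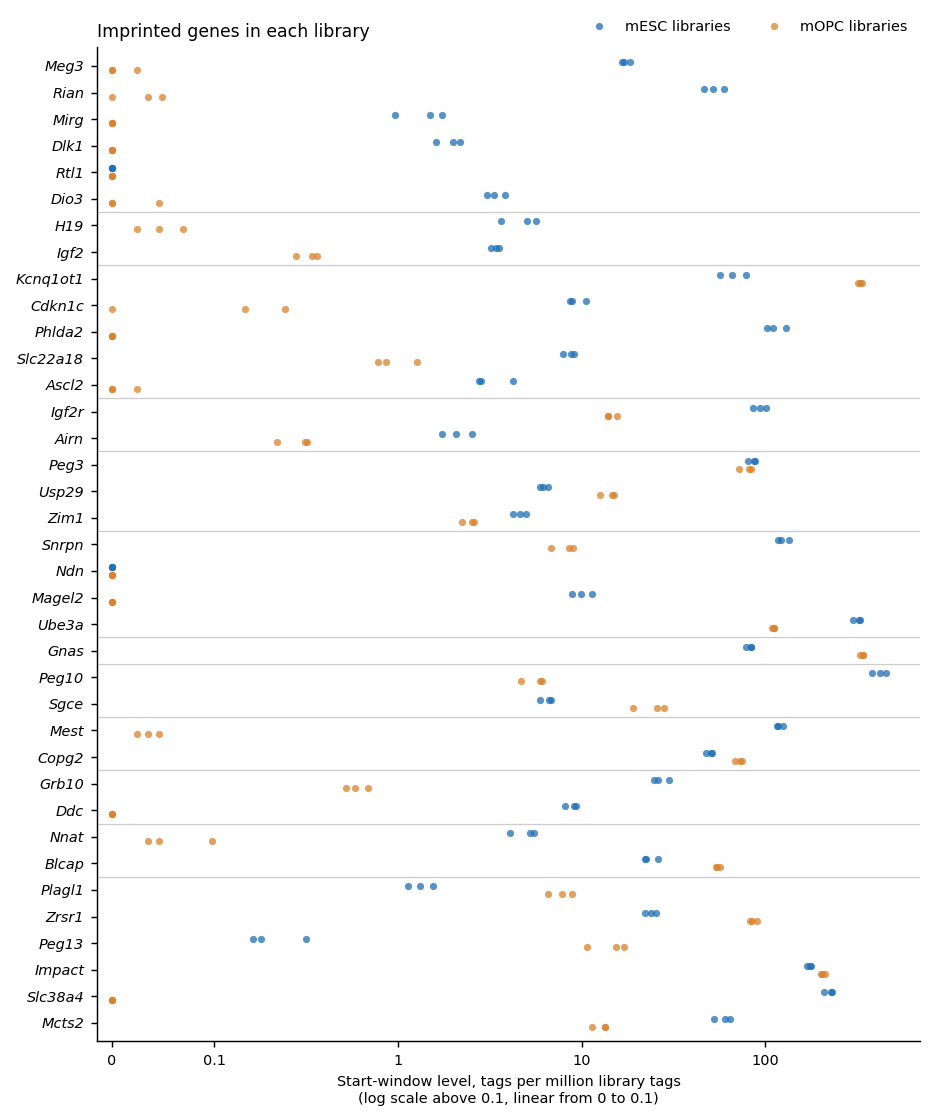
Start-window level of each of the 37 imprinted genes in the 3 mESC (blue) and 3 mOPC (orange) libraries, in CPM, on an axis that is logarithmic above 0.1; grey lines separate clusters and the last 6 genes are single. The libraries of a cell type lie close together, and the groups of Peg3 overlap.

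Levels were sorted by set thresholds of 1 and 0.1 CPM. Some mOPC means lay between these, from 0.130 CPM for Cdkn1c to 0.971 CPM for Slc22a18. A mean of at least 1 CPM in either cell type was reached by 35 members and by 15611 of all genes. In mESCs 34 of the 35 reached it and in mOPCs 17, with 16 in both. For 13 members, Meg3, Rian, Mirg, Dlk1, Dio3, H19, Phlda2, Ascl2, Magel2, Mest, Ddc, Nnat and Slc38a4, the mESC mean was at least 1 CPM while the mOPC mean was under 0.1 CPM. This was 37.1% of the 35 members against 11.8% of the 15611 genes. The reverse pattern was met by 0 members and by 3.59% of the genes. In bulk RNA, fewer cells that express a gene and less RNA per cell cannot be told apart.

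Grouped after the values were seen by the parental copy that textbooks name, all 10 maternally expressed members were higher in mESCs, as were 47.8% of all genes tested. These 10 are not independent cases. Meg3, Rian and Mirg share a cluster, and so do Cdkn1c, Phlda2, Slc22a18 and Ascl2. Of the 21 paternally expressed members 19 were tested, and 7 of them were higher in mOPCs (43.4% of all genes tested) and 12 in mESCs. The remaining 6, whose imprint depends on tissue or promoter (Ube3a, Gnas, Copg2, Grb10, Ddc and Blcap), divided into 3 and 3. The summed level of the maternally expressed members was 310.1 CPM in mESCs and 18.1 CPM in mOPCs, and that of the paternally expressed members 1337 and 787 CPM.

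The Dlk1-Meg3 cluster on chromosome 12 was transcribed in mESCs from Meg3 to Mirg and at separate starts outside that interval, and its 5 tested members had at most 3 tags each in their start windows over the 3 mOPC libraries. Meg3, a long non-coding RNA expressed from the maternal copy (chr12:109541001-109571726, plus strand), had 17.1, 18.4 and 16.6 CPM in the 3 mESC libraries. In mOPCs 1 tag was counted over the 3 libraries. Every mESC library was thus far above every mOPC library, with a ratio of pooled levels of 1584 (95% interval 284 to 62633, counting error only). Rian, which hosts C/D box small nucleolar RNAs, had 59.5, 51.9 and 46.6 CPM in mESCs and 3 tags in mOPCs, a ratio of 1665 (569 to 8079). Mirg, a host of microRNAs further along the same strand, had 1.5, 0.961 and 1.74 CPM and 0 tags in mOPCs, and was at least 44.0-fold higher in mESCs by the limit of 3 tags over the 3 mOPC libraries. The 3 RNAs therefore differed in level by more than 10-fold within mESCs and were alike in their near absence from mOPCs.

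The protein-coding members of the cluster were less abundant. Dlk1, a transmembrane relative of the Notch ligands expressed from the paternal copy, had 2.01, 1.62 and 2.17 CPM in mESCs and 0 tags in mOPCs, at least 59.9-fold higher in mESCs. Dio3, the deiodinase that inactivates thyroid hormone, had 3.35, 3.06 and 3.85 CPM in mESCs and 1 tag in mOPCs, a ratio of 313 (55.6 to 12407). Rtl1, a gene derived from a retrotransposon, had 0 tags in its start windows in all 6 libraries. The strand opposite to Rtl1 had 4.28, 3.84 and 5.70 CPM over the length of the gene in mESCs and 0 tags in mOPCs. On its own strand the body of Rtl1 had 0.343, 0.24 and 0.217 CPM in mESCs, 21 tags in all, and 0 tags in mOPCs. These tags were too few to be tested.

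Between the start of Meg3 and the end of Mirg the plus strand had 151, 134 and 138 CPM in mESCs and 0.274, 0.381 and 0.342 CPM in mOPCs, a ratio of 425 (299.5 to 626). Outside annotated genes and start windows of this strand, 82.5 kb of the interval still had 23.9, 21.7 and 25.3 CPM in mESCs and 0.0733 to 0.228 CPM in mOPCs. The minus strand of the interval was at 4.12, 3.90 and 4.23 CPM in mESCs, and at 0.147 to 0.182 CPM in mOPCs. Transcription was thus mainly on the strand of Meg3. A further start lay 407.9 kb beyond the start of Meg3 (chr12:109948895, plus strand), between Mirg and Dio3 and outside the annotated genes of that strand. It had 7.15, 6.54 and 5.54 CPM within 500 bp in mESCs and 0 tags in mOPCs, at least 202-fold higher in mESCs. The position was chosen after the tags were seen.

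**Figure D2:**
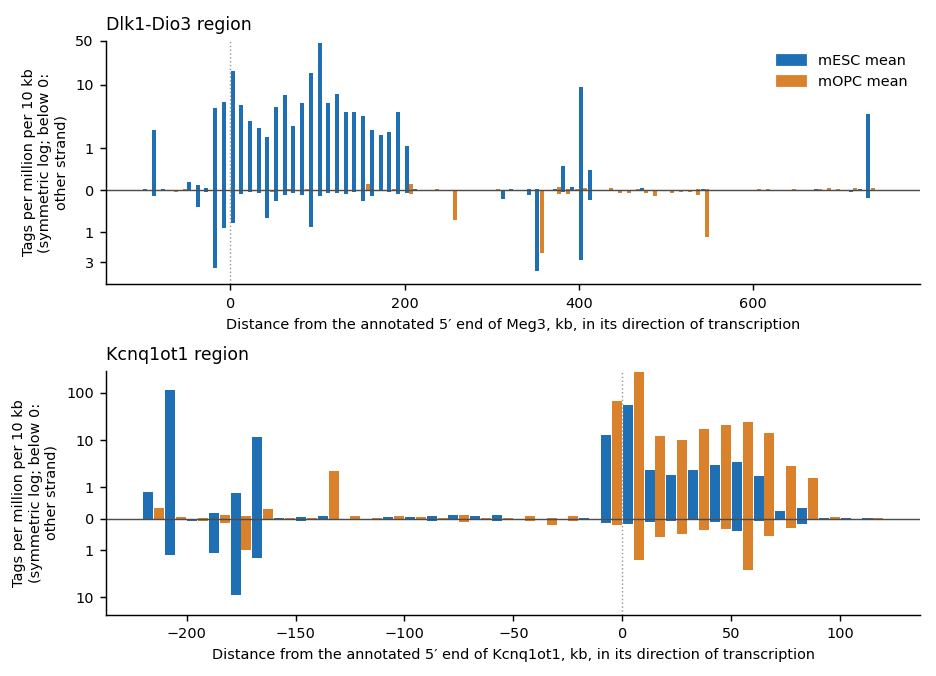
Mean CPM in bins of 10 kb along the Dlk1-Dio3 and Kcnq1ot1 regions, by distance in kb from the annotated 5′ end of Meg3 or Kcnq1ot1, on a symmetric log axis with the other strand below 0; each bin holds a mESC bar (blue) and a mOPC bar (orange). In the first region the strand of Meg3 holds mESC tags in every bin from the start of Meg3 to 210 kb. Farther on they lie mainly near 400 and 730 kb. The mOPC bars on that strand are near 0, and on the other strand mOPC bars reach 2.11 CPM. In the second region the mOPC bars exceed the mESC bars along the body of Kcnq1ot1.

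Tags within Meg3 and Rian were spread unevenly over the promoter windows. Meg3 promoter 1, at the annotated start, had 4.82 ± 1.25 CPM (SD, n = 3) in mESCs and promoter 3, further into the gene, had 10.8 ± 0.741 CPM. In Meg3 promoter 1 the tags from the 10th to the 90th percentile spanned 5 bp, and in promoter 3 they spanned 980 bp. The dominant position held 58.8% of the tags in promoter 1 and 14.7% in promoter 3. It was the same in 3 libraries for promoter 1 but was found in only 1 library for promoter 3. Whether the scattered tags of promoter 3 mark a promoter of their own was not tested. In Rian promoter 7 (dominant start chr12:109646131) was the strongest, with 28.7 ± 3.53 CPM, followed by promoter 8 with 14.6 ± 1.23 CPM and the first promoter with 4.65 ± 2.30 CPM. The window at the annotated start of Rian was thus not the most used.

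H19 and Igf2 on chromosome 7 share enhancers and are expressed from opposite parental copies. Both were low in mESCs and lower in mOPCs. H19, a non-coding RNA and microRNA host, had 5.67, 5.04 and 3.64 CPM in mESCs and 0.0456, 0.0694 and 0.0244 CPM in mOPCs, the latter from 4 tags. Igf2, the insulin-like growth factor that drives fetal growth, had 3.54, 3.42 and 3.20 CPM in mESCs and 0.365, 0.277 and 0.342 CPM in mOPCs. The groups were separate for both genes, with log2 fold changes of -6.72 ± 0.36 (SE; edgeR adjusted p = 4.2e-33) for H19 and -3.42 ± 0.26 (adjusted p = 8.3e-23) for Igf2. Igf2 promoter 3 had 2.32 ± 0.0702 CPM in mESCs and 0 tags in mOPCs, and 84.2% of its mESC tags lay on 1 position.

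In the Kcnq1 domain on the same chromosome, the non-coding RNA rose in mOPCs while the other members fell. Kcnq1ot1, expressed from the paternal copy and antisense to Kcnq1 (chr7:143203458-143296549, minus strand), had 56.7, 66.0 and 78.2 CPM in mESCs and 335.8, 329 and 321 CPM in mOPCs. All mOPC libraries were above all mESC libraries, with a log2 fold change of 2.23 ± 0.09 (SE; edgeR adjusted p = 7.2e-40). The start shown above was used in both cell types: the dominant position was chr7:143296541 in all 6 libraries, with 37% of the tags of the window in mESCs and 41.5% in mOPCs. Downstream of the start window the body of Kcnq1ot1 had 17.5, 15.9 and 21.2 CPM in mESCs and 126, 121 and 117 CPM in mOPCs. The body took 21.4% ± 2.09 of the tags of the gene in mESCs and 26.9% ± 0.290 in mOPCs, with no overlap (exact two-sided permutation test, p = 0.1, the smallest that 3 against 3 allow).

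The maternally expressed members of the domain were at the other extreme. Phlda2, a pleckstrin homology domain protein that limits placental growth, had 102, 130 and 111 CPM in mESCs and 0 tags in mOPCs, at least 3381-fold higher in mESCs. Cdkn1c, the cyclin-dependent kinase inhibitor p57, had 8.71, 10.6 and 8.90 CPM in mESCs and 0, 0.243 and 0.147 CPM in mOPCs (log2 fold change -6.06 ± 0.26, edgeR adjusted p = 4.4e-38). Ascl2, a transcription factor of the trophoblast lineage, had 2.77, 4.26 and 2.82 CPM in mESCs and 1 tag in mOPCs, a ratio of 286.5 (50.9 to 11365). For these 3 genes the lowest mESC library was far above the highest mOPC library. Slc22a18, a transporter of the organic cation family, had 7.94, 9.07 and 8.79 CPM in mESCs and 0.775, 0.867 and 1.27 CPM in mOPCs (log2 fold change -3.13 ± 0.18, adjusted p = 2.6e-30). Its promoter 1 changed by -2.58 ± 0.20 and its promoter 2 by -4.88 ± 0.31 on the log2 scale, so that both fell. Kcnq1 itself, a potassium channel gene that is not among the 37 and overlaps Kcnq1ot1, had 2.52 to 2.72 CPM in mESCs and 0.0694 to 0.182 CPM in mOPCs.

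Igf2r and Airn on chromosome 17 overlap on opposite strands, and both were lower in mOPCs. Igf2r, the receptor that clears IGF2, had 85.8, 94.3 and 101 CPM in mESCs and 14.0, 13.9 and 15.6 CPM in mOPCs (log2 fold change -2.75 ± 0.10, edgeR adjusted p = 5.5e-47). Airn, the paternally expressed RNA that starts inside Igf2r (dominant start chr17:12741375, plus strand), had 2.09, 2.52 and 1.74 CPM in mESCs and 0.319, 0.312 and 0.22 CPM in mOPCs (log2 fold change -2.98 ± 0.30, adjusted p = 4.4e-16). The groups did not overlap for either gene. The dominant start of Igf2r was chr17:12769718 in both cell types. A second plus-strand start within the annotated body of Airn (chr17:12769792), 28394 bp from its 5′ end and close to the start of Igf2r, had 1.37, 1.92 and 2.5 CPM in mESCs and 0, 0.624 and 0.244 CPM in mOPCs within 100 bp. Body tags of Airn thus include this start.

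In the Peg3 cluster at the proximal end of chromosome 7, the largest difference among the 3 listed members was 1.10 on the log2 scale. Peg3, a zinc finger protein expressed from the paternal copy, had 86.9, 80.5 and 88.1 CPM in mESCs and 83.6, 81.9 and 71.9 CPM in mOPCs. The groups overlapped, and the log2 fold change was -0.18 ± 0.08 (edgeR adjusted p = 0.039). The call was lost without mESC replicate 1 (adjusted p = 0.17), without mOPC replicate 2 (0.069), without mOPC replicate 3 (0.17) and when scaled to library totals (0.19). Usp29, a ubiquitin-specific protease gene that starts from the other strand of the same region, had 6.18, 6.60 and 5.97 CPM in mESCs and 15.0, 14.6 and 12.7 CPM in mOPCs (log2 fold change 1.10 ± 0.13, adjusted p = 2.5e-13). Zim1, a maternally expressed zinc finger gene, had 4.99, 4.26 and 4.61 CPM in mESCs and 2.60, 2.53 and 2.22 CPM in mOPCs (log2 fold change -1.01 ± 0.17, adjusted p = 4.2e-08). Usp29 thus rose and Zim1 fell, with separate groups for both.

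Peg3 and Usp29 diverge from one region, as the sequence above shows. The dominant starts lay 205 bp apart in mESCs (chr7:6730420 for Peg3, chr7:6730625 for Usp29) and 185 bp apart in mOPCs, where the Usp29 start was at chr7:6730605. The ratio of Peg3 to Usp29 was 14.1, 12.2 and 14.8 in mESCs and 5.57, 5.60 and 5.67 in mOPCs. Peg10 and Sgce on chromosome 6 form a second such pair, with dominant starts 208 bp apart in both cell types. Peg10, a gene derived from a retrotransposon and needed in the placenta, had 457.5, 384 and 421 CPM in mESCs and 4.70, 6.07 and 5.94 CPM in mOPCs (log2 fold change -6.29 ± 0.11, edgeR adjusted p = 2.3e-70). Sgce, which encodes epsilon-sarcoglycan, had 5.96, 6.78 and 6.62 CPM in mESCs and 28.0, 25.8 and 19.1 CPM in mOPCs (log2 fold change 1.84 ± 0.12, adjusted p = 1.2e-25). Both genes of the pair are paternally expressed, and they changed in opposite directions. The ratio of Peg10 to Sgce was 76.7, 56.6 and 63.6 in mESCs and 0.168, 0.235 and 0.312 in mOPCs. For each pair the ratios did not overlap between cell types (exact two-sided permutation test, p = 0.1, the smallest possible).

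**Figure D3:**
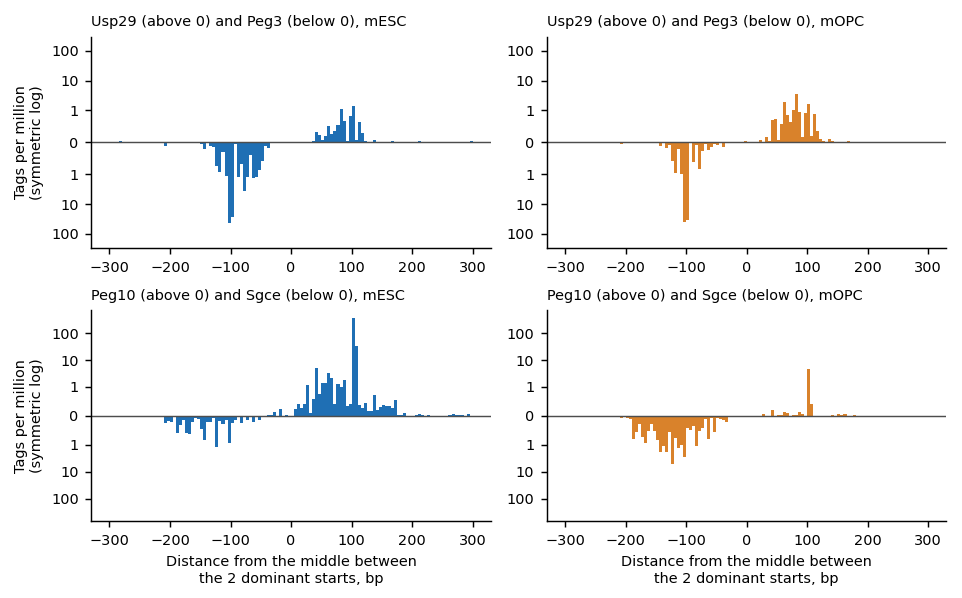
Mean CPM in steps of 5 bp around the middle between the dominant starts of Usp29 and Peg3 (top) and of Peg10 and Sgce (bottom), in mESCs (blue) and mOPCs (orange), on a symmetric log axis with minus-strand tags below 0. The main Peg3 peak is of like height in both cell types, with more mESC tags to its right, whereas the sharp Peg10 peak is tall in mESCs and small in mOPCs and the broad Sgce signal is the larger in mOPCs.

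The Snrpn cluster, also on chromosome 7 and the counterpart of the human Prader-Willi and Angelman region, had 3 tested members, all lower in mOPCs. Snrpn, which encodes a splicing protein of small nuclear ribonucleoproteins, had 122, 135 and 117 CPM in mESCs and 8.53, 9.02 and 6.79 CPM in mOPCs (log2 fold change -4.02 ± 0.10, edgeR adjusted p = 3.2e-58). The window is shared with Snurf and with the readthrough gene Gm38393, so that the tags cannot be assigned to one of them. Magel2, a MAGE family gene, had 11.4, 9.91 and 8.90 CPM in mESCs and 0 tags in mOPCs, at least 318-fold higher in mESCs. Ube3a, the ubiquitin ligase that is imprinted in neurons, had 299.8, 328 and 323 CPM in mESCs and 109, 111 and 111 CPM in mOPCs (log2 fold change -1.59 ± 0.08, adjusted p = 5.2e-33). It was the member of the cluster with the highest level in both cell types.

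Ndn, which encodes the MAGE protein necdin, needed a separate look. No tag fell within 500 bp of its annotated 5′ end, but a cluster of tags lay 1724 bp inside the gene (chr7:62348293, plus strand), within the RefSeq promoter window of Ndn. The position was found from the tags, as were the further starts within Airn and Ddc. This cluster had 1.48, 0.66 and 1.41 CPM within 100 bp in mESCs and 0 tags in mOPCs, at least 39.0-fold higher in mESCs. Over all tags of gene bodies outside start windows, 23 of 24 members tested were called, against 81.9% of genes, and Ndn was among those higher in mESCs. Usp29 was the one not called (adjusted p = 0.64). That test was scaled to body tags, and Peg3 was lower in mOPCs on that scale but higher in CPM of the library (4.43 against 6.37 CPM).

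At Gnas on chromosome 2 the promoters changed in opposite directions. The locus encodes the G protein subunit Gs alpha and, from upstream promoters, the maternally expressed neuroendocrine protein NESP55 and other products. Over the whole gene the level was 83.6, 78.4 and 84.1 CPM in mESCs and 339, 339.6 and 327 CPM in mOPCs (log2 fold change 1.96 ± 0.09, edgeR adjusted p = 1.4e-39). Promoter 1, the NESP55 promoter (dominant start chr2:174285311), had 28.1, 28.5 and 29.6 CPM in mESCs and 0, 0.0347 and 0.0733 CPM in mOPCs (log2 fold change -9.34 ± 0.25, adjusted p = 2.1e-95). Promoter 3, at exon 1A and shown above, had 6.97, 5.64 and 5.75 CPM in mESCs and 22.9, 18.8 and 22.1 CPM in mOPCs (log2 fold change 1.64 ± 0.12, adjusted p = 2.9e-29). Promoter 4, that of Gs alpha (dominant start chr2:174330118), had 48.3, 43.5 and 48.4 CPM in mESCs and 316, 319 and 304 CPM in mOPCs (log2 fold change 2.62 ± 0.09, adjusted p = 1.4e-73).

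As shares of the gene, promoter 1 took 35.1% ± 1.34 in mESCs and 0.0109% ± 0.0112 in mOPCs, and promoter 4 took 57.0% ± 1.25 and 93.3% ± 0.606. Neither share overlapped between cell types (exact two-sided permutation test, p = 0.1, the smallest possible). On the opposite strand, the start of the antisense RNA Nespas (chr2:174295438) had 58.2, 62.7 and 65.1 CPM within 100 bp in mESCs and 54.9, 49.7 and 49.3 CPM in mOPCs. Nespas was thus lower in mOPCs (log2 fold change -0.59 ± 0.09, edgeR adjusted p = 9.2e-10), and its groups did not overlap.

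Over the promoters of all members, 111 windows were listed and 60 had enough tags to be tested. All 60 were called, where 89.5% of 21826 promoters of all genes were. Of the 60, 15 were higher in mOPCs (43.4% of all promoters) and 45 higher in mESCs (46.1%). Of the member promoters, 19 reached 1 CPM in mESCs and in mOPCs alike, and the dominant start was at the same position in 16 of these. It moved by 3 bp in Blcap, 20 bp in Usp29 and 25 bp in the first promoter of Impact. A changed level therefore mostly went with an unchanged dominant start.

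**Figure D4:**
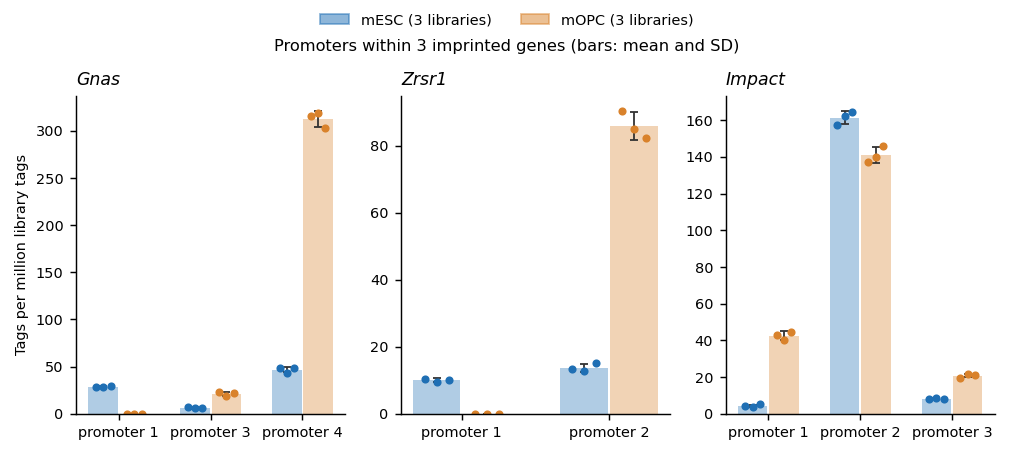
Levels in CPM at single promoters of Gnas, Zrsr1 and Impact in the 3 mESC (blue) and 3 mOPC (orange) libraries, with points for libraries and bars for the mean and its SD. The first promoters of Gnas and Zrsr1 are near 0 in mOPCs while later promoters of the same genes are higher there, and at Impact the first promoter is higher in mOPCs while the second is slightly lower.

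Zrsr1, an intronless gene of a splicing factor within an intron of Commd1 on chromosome 11, showed the same pattern of promoters. The gene had 23.8, 22.3 and 25.3 CPM in mESCs and 90.3, 84.8 and 82.3 CPM in mOPCs (log2 fold change 1.78 ± 0.09, edgeR adjusted p = 3.6e-34). Promoter 1 had 10.5, 9.55 and 10.2 CPM in mESCs and 0 tags in mOPCs, at least 312-fold higher in mESCs. Promoter 2 had 13.3, 12.7 and 15.1 CPM in mESCs and 90.3, 84.8 and 82.3 CPM in mOPCs (log2 fold change 2.52 ± 0.10, adjusted p = 1.0e-64). Its share of the gene was 57.6% ± 1.97 in mESCs and 100% in mOPCs. Commd1, the host gene, had 120 to 137 CPM in mESCs and 119 to 137.5 CPM in mOPCs and did not pass the test (log2 fold change -0.07 ± 0.08, adjusted p = 0.42).

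Impact, on chromosome 18, encodes a regulator of translation that is abundant in neurons. Its level was 170, 175 and 178 CPM in mESCs and 201, 203 and 213 CPM in mOPCs, with separate groups and a log2 fold change of 0.17 ± 0.08 (edgeR adjusted p = 0.042). The call was lost without mESC replicate 2 (adjusted p = 0.27), mESC replicate 3 (0.25), mOPC replicate 1 (0.073) or mOPC replicate 3 (0.15). It was also lost with DESeq2 (0.31), with no filter on low counts (0.21), with libraries thinned to the smallest (0.13) and with windows of 100 bp (0.064) or 1000 bp (0.18). Below this small difference the promoters differed more. Promoter 1 had 4.17, 3.60 and 5.10 CPM in mESCs and 43.0, 40.1 and 44.8 CPM in mOPCs (log2 fold change 3.19 ± 0.12, edgeR adjusted p = 3.6e-68). Promoter 2 had 157, 162.5 and 164 CPM in mESCs and 137.5, 140.1 and 146 CPM in mOPCs (log2 fold change -0.31 ± 0.09, adjusted p = 0.00043). The share of promoter 1 was 2.46% ± 0.403 in mESCs and 20.7% ± 0.862 in mOPCs, without overlap (exact two-sided permutation test, p = 0.1).

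On chromosome 6 the start windows of Mest were nearly empty in mOPCs and its neighbour Copg2 rose. Mest, a paternally expressed member of the alpha/beta hydrolase family, had 117, 125 and 117 CPM in mESCs. In mOPCs it had 3 tags over the 3 libraries, a ratio of 3631 (1242 to 17612). Nearly all mESC tags came from promoter 4, shown above, with 119 ± 5.00 CPM and 84.3% of the tags of that window on 1 position. Outside the start windows the body of Mest had means of 0.590 CPM in mESCs and 0.417 CPM in mOPCs. Copg2, which overlaps the end of Mest on the other strand and encodes a coat protein of vesicles, had 47.6, 51.4 and 50.8 CPM in mESCs and 72.9, 74.9 and 68.1 CPM in mOPCs (log2 fold change 0.46 ± 0.09, edgeR adjusted p = 8.1e-07). The groups were separate for both genes and the directions opposite.

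Grb10 and Ddc lie next to each other on chromosome 11, and both fell. Grb10, an adaptor protein that restrains insulin and growth factor signalling, had 24.7, 30.0 and 26.2 CPM in mESCs and 0.684, 0.52 and 0.586 CPM in mOPCs (log2 fold change -5.56 ± 0.17, edgeR adjusted p = 3.7e-52). Its promoter 2 (dominant start chr11:12037400) carried 26.0 ± 2.87 CPM of this in mESCs and all tags of the start windows in mOPCs. Ddc, the aromatic amino acid decarboxylase that makes dopamine and serotonin, had 9.05, 9.31 and 8.14 CPM in mESCs and 0 tags in mOPCs, at least 271-fold higher in mESCs. Most of the mESC level came from promoter 6 (dominant start chr11:11822954), the window farthest into the gene, with a mean of 6.59 CPM. Its tags from the 10th to the 90th percentile spanned 370 bp. Promoter 2 (dominant start chr11:11890402) had a mean of 1.17 CPM. A further start within Ddc (chr11:11882295, minus strand), outside the annotated windows, had 3.54, 3.66 and 3.04 CPM within 100 bp in mESCs and 0 tags in mOPCs.

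Nnat, Mcts2 and Peg13 lie within introns of host genes. Nnat, which encodes a small membrane protein of neural and endocrine cells and lies in Blcap, had 5.25, 4.08 and 5.54 CPM in mESCs and 0.0456, 0.0347 and 0.0977 CPM in mOPCs (log2 fold change -6.22 ± 0.33, edgeR adjusted p = 2.7e-33). Blcap had 26.1, 22.2 and 22.4 CPM in mESCs and 56.6, 54.1 and 54.6 CPM in mOPCs (log2 fold change 1.15 ± 0.09, adjusted p = 4.8e-21). Mcts2, a retrogene within H13, had 52.9, 64.7 and 60.3 CPM in mESCs and 13.5, 13.5 and 11.4 CPM in mOPCs (log2 fold change -2.28 ± 0.10, adjusted p = 1.1e-39). H13 rose from 64.8 to 74.4 CPM in mESCs to 211 to 227 CPM in mOPCs. Nnat and Mcts2 thus fell where their hosts rose. Peg13, a non-coding RNA within Trappc9, had 0.317, 0.18 and 0.163 CPM in mESCs and 17.0, 15.4 and 10.7 CPM in mOPCs (log2 fold change 5.76 ± 0.24, adjusted p = 2.6e-38). Trappc9 rose too, from 17.7 to 20.1 CPM to 76.4 to 84.2 CPM, by 2.03 ± 0.09 on the log2 scale. Peg13 was the member with the largest rise.

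Plagl1 and Slc38a4 are single imprinted genes outside these clusters. Plagl1, a zinc finger transcription factor that acts on other imprinted genes, had 1.56, 1.32 and 1.14 CPM in mESCs and 6.57, 8.88 and 7.87 CPM in mOPCs (log2 fold change 2.43 ± 0.18, edgeR adjusted p = 1.9e-23). The dominant start shown above was the same in both cell types (chr10:13090831). Slc38a4, an amino acid transporter of the placenta and liver, had 209, 231 and 228 CPM in mESCs and 0 tags in mOPCs, at least 6686-fold higher in mESCs. This was the largest bound among the 6 members with 0 tags in mOPCs. Outside the start windows the body of Slc38a4 had means of 10.0 CPM in mESCs and 0.109 CPM in mOPCs, the latter from 10 tags.

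**Figure D5:**
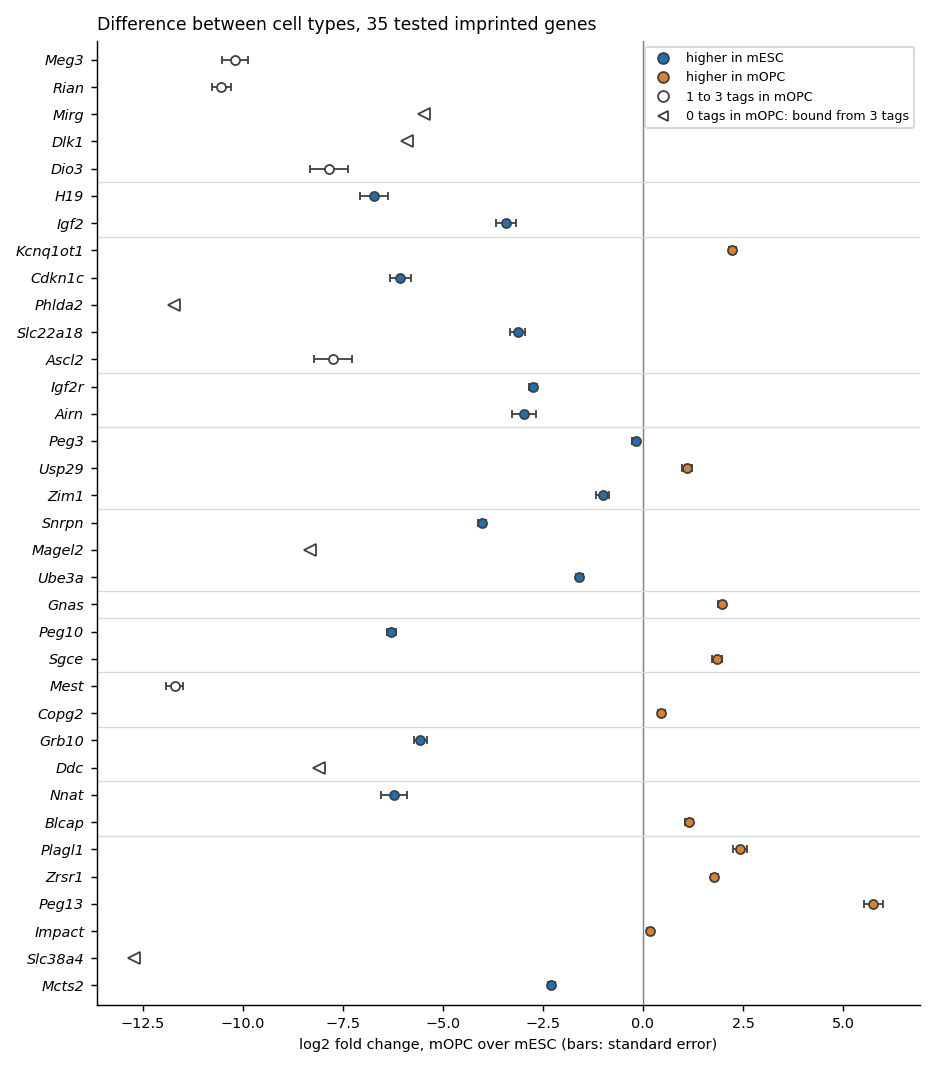
log2 fold change (mOPC over mESC) of the 35 tested imprinted genes by cluster, with standard errors; open circles are genes with 1 to 3 tags in mOPCs, and open triangles give the bound that 3 tags over the mOPC libraries allow for genes with 0 tags. Filled points lie to the right of 0 for 10 genes, with Peg13 the farthest, and the 25 others lie to the left.

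Genes of imprint maintenance were compared as a list of 17, all tested. The list also held genes that set or remove DNA methylation, such as Dnmt3l, Tet1, Tet2 and Tet3. Of the 17, 12 were higher in mESCs (47.8% of all genes tested), 4 higher in mOPCs (43.4%) and 1 not called (91.2% of all genes were called). The median log2 fold change of the list was -1.44 against -0.12 over all genes. The 4 that rose, named after their values were seen, were the dioxygenase Tet3 (log2 fold change 2.55 ± 0.10), the histone methyltransferase Ehmt2 (0.71 ± 0.09), the zinc finger gene Zfp445 (0.53 ± 0.09) and Smchd1 (0.51 ± 0.09). Zfp57, the zinc finger protein that binds methylated imprinting control regions, had 196 to 221.5 CPM in mESCs and 0 tags in mOPCs. Its partner Trim28 had 295 to 356 CPM in mESCs and 41.8 to 47.4 CPM in mOPCs (log2 fold change -2.94 ± 0.09, edgeR adjusted p = 1.2e-50). Dnmt3l, the cofactor of the methyltransferases that set imprints, had 140.5 to 172 CPM in mESCs and 1 tag in mOPCs. Dppa3, which protects methylation marks in the zygote, had 7.11 to 9.07 CPM in mESCs and 0 tags in mOPCs. The maintenance methyltransferase Dnmt1 fell less (118 to 128 CPM against 72.1 to 82.7 CPM; log2 fold change -0.70 ± 0.08, adjusted p = 7.4e-13). Ctcf, which binds the control region of H19 and Igf2, fell from 82.1 to 87.6 CPM to 28.5 to 30.1 CPM (log2 fold change -1.60 ± 0.09, adjusted p = 1.0e-31).

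Of a list of 44 other imprinted genes 32 were tested. Of the 32, 8 were higher in mOPCs (43.4% of all genes tested), 15 higher in mESCs (47.8%) and 9 did not pass (91.2% of all genes were called), and the median log2 fold change was -0.15 against -0.12 over all genes. The 3 with the largest changes were Pon3, a lactonase gene near Peg10, with 21.5 to 25.8 CPM in mESCs and 0 tags in mOPCs, Zim2 in the Peg3 cluster, with 9.85 to 10.8 CPM and 1 tag, and Casd1 next to Sgce, with 32.0 to 33.8 CPM and 0 to 0.243 CPM. A difference between the 2 lists was not tested.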

How the data were processed

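CAGE tags were measured in nuclear RNA of mESC and mOPC lines, 3 libraries each. The deposited files hold raw counts of tags per start position on mm10. The submitters' processing notes list CASAVA 1.8 and BWA 0.5.9, whereas the methods of the study describe mapping with bowtie and unique alignments only. Tags carried no molecular identifiers. No column of another sample was present.

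Counts were summed within 500 bp of the annotated 5′ ends of the protein-coding genes and long non-coding RNAs in GENCODE vM21 (35325 genes, 63417 promoters). Strand was kept. Differences were tested with edgeR 4.0.16 (quasi-likelihood, TMM factors, default expression filter) in R 4.3.3, with Benjamini-Hochberg adjustment at 0.05, without a replicate block. On simulated data 200 of 200 genes changed by 4-fold were recovered, with 8 false calls. These 200 were placed among 16713 genes, only where ample tags were expected, with 1 fixed dispersion. The check therefore covers neither genes with few tags nor change in most genes. SE is the log2 fold change divided by the square root of F. Shares were compared by exact permutation in SciPy 1.17.1. Intervals of pooled ratios are exact binomial (95%), and intervals and floors cover counting error only.

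The 37 genes and the other lists were chosen with earlier results of these data known. Named by rule were all members, with values per library where the mean reached 1 CPM, overlapping genes and, of the other lists, the 3 largest changes each with Zfp57, Trim28, Dnmt1 and Ctcf. Libraries of the same group differed by more than sampling noise.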

Additional observations from a re-analysis of the deposited data

How the results depend on the processing

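Direction was kept in all 1176 recalculations of the log2 fold changes of 35 members and 60 member promoters, and 1156 stayed on the same side of the threshold. Cases in which a gene or promoter could no longer be tested are not among the 1176. Most of those cases arose with libraries thinned to the smallest. The settings were library totals, DESeq2, no expression filter, the replicate block, thinning to the smallest library and each library left out, and for genes also windows of 100 and 1000 bp, windows of 1 gene only and all tags of a gene. The 20 exceptions concerned Peg3, Impact and promoters of Peg3, Impact, Gnas and Igf2, and the cause was not tested. With 1 library left out, 9 to 10 members were higher in mOPCs and 24 to 25 in mESCs. With the replicate number as a block 15224 genes were called (15243 without it), with 10 members higher in mOPCs and 25 in mESCs. Same-numbered libraries correlated at -0.003 to 0.06 in their deviations from group means, so that the numbers gave no pairing. Low members (Mirg, Dlk1, Ndn) rest on few tags, and with 0 tags in mOPCs depth sets the bound.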
